A study of Bos taurus with 5 samples.

Results

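In bovine follicular wall, 64 genes with a RefSeq messenger RNA accession gave a moderately higher signal in the largest follicle (F1) than in the second-largest follicle (F2). They were chosen from the measured values themselves. A probe was eligible when it was well above background and not saturated on all 5 arrays, which held for 737 of the 1415 probes with such an accession, and the array carried 10163 single-spot probes in all. An eligible probe was kept when its lowest F1 value was above its highest F2 value and the ratio of the geometric means of F1 and F2 was at least 2 and under 7. Because these values made the choice, the difference between F1 and F2 is given here as a description without a test, and probes that were dim or saturated on any array are not represented.

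The material was follicular wall of pregnant Japanese Black cows. Each wall had been freed of stroma and theca externa, which left the granulosa cells and theca interna, and its total RNA was labelled with Cy3. Of these follicles, 3 F1 and 2 F2 were measured, each on its own one-color array. The animals' age is not given in the sources used here, and no treatment separated the groups, which differed in the size rank of the follicle. The study collected some F1 and F2 from the same cow, so 1 or both measured F2 came from a cow that also gave an F1, and the sources do not name it. The follicles were treated as independent, without account of a shared cow. Any p-value below sets the difference between F1 and F2 against the spread of these 5 follicles within their groups, estimated with help from all tested probes.

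Cattle usually ovulate from a lone dominant follicle, and the smaller follicles that started out beside it are lost by atresia. Theca cells make androgens, which granulosa cells convert to estradiol. Steroid synthesis begins inside the mitochondrion, where electrons pass from ferredoxin reductase through ferredoxin to the cytochrome P450 that cleaves the side chain of cholesterol, so steroid-producing cells depend on mitochondria for both energy and product.

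Every value below is a background-subtracted signal over the median of the 100 GAPDH spots on the same array, and values are listed as F1 replicates 1, 2 and 3 followed by F2 replicates 1 and 2. A fold is the ratio of the geometric means of F1 and F2, and the error of a log2 difference is its standard error in a limma fit over all 5528 tested probes (3 F1, 2 F2). A level is never compared between probes, because each probe binds with its own strength. The scaling sets where the whole distribution lies, and on the GAPDH scale the 737 eligible probes had a median log2 difference, F1 minus F2, of 0.22, or 1.17-fold, against 0.01 when arrays were scaled to their 75th percentile. The median log2 difference of the 64 genes was 1.62, or 3.08-fold, and 1.41 at the 75th percentile.

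Of the 737 eligible probes, 248 did not overlap between the groups and were higher in F1 (33.6%), and 154 did not overlap and were higher in F2 (20.9%). At the 75th percentile this split was 196 and 212 probes, and after quantile normalization 194 and 224. The 64 genes made up 8.68% of the eligible probes. The mirror range, 2 to under 7-fold higher in F2, held 74 probes (10%). Of the other probes that were higher in F1 without overlap, 170 were under 2-fold and 14 were at 7-fold or more. Within the range, 16 of the 64 genes had a ratio of 4 or more, 19 lay from 3 to under 4, and 29 lay from 2 to under 3. In the limma fit 353 of all tested probes (6.39%) were higher in F1 at an adjusted p under 0.05, as were 6.78% of the eligible probes, with 7.19% lower, and 36 of the 64 genes were called higher, a count that the choice of the genes by the same contrast leaves without weight.

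**Figure D1:**
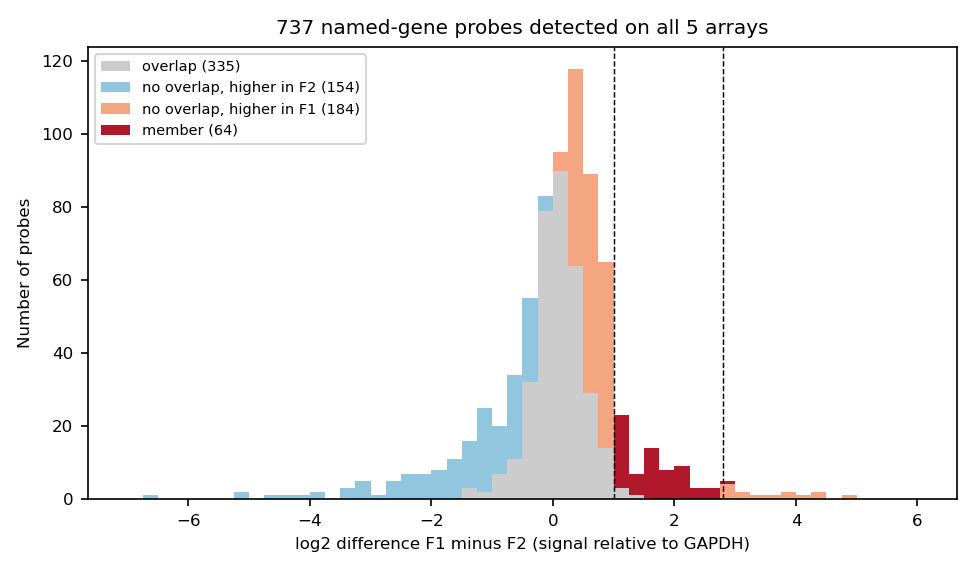
Number of named-gene probes (vertical axis) by log2 difference between F1 and F2 (horizontal axis, signal relative to GAPDH) for the 737 probes detected on all 5 arrays. Colours separate probes whose groups overlap (335), probes higher in F2 without overlap (154), the 64 genes described here, and the other probes higher in F1 without overlap, and the dashed lines mark ratios of 2 and 7.

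The bounds cut through a continuous range. Just inside the lower bound were NDST2, which sulfates heparan sulfate, at 2.004-fold and TIMP2, an inhibitor of matrix metalloproteinases, at 2.01-fold. Just outside it were B3GAT3, which builds the linker of proteoglycan chains, at 1.996-fold and HSD11B1L at 1.97-fold. At the upper bound GSTA2 (6.79-fold) and FDXR (6.70-fold) were inside, and the hypoxia factor HIF1A (7.02-fold) and the tetraspan protein UPK1B (7.51-fold) were outside. A further 4 probes had a ratio in the range but overlapped between the groups, and these were DDO (2.51-fold), SLC1A3 (2.28-fold), IDH1 (2.17-fold) and BLCAP (2.001-fold).

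The labelled tissue was checked against marker lists of the cell types a follicular wall can hold. These lists were chosen with earlier results of these data known, so their counts are a description only. All 8 tested granulosa markers were higher in F1 in the limma fit, and their summed level was 265 to 365 in F1 and 21.0 to 33.2 in F2. FSHR and the theca marker LHCGR were not well above background on either F2, nor was CYP19A1 on F2 replicate 1. SERPINE2, INHA and INHBA were saturated on 3 arrays, FST on 2 and GJA1 on 1, all of them F1, so the F1 sums are lower bounds. These bright probes made up most of the granulosa sum in every follicle. Of the 8 theca markers, 4 were higher in F1, with summed levels of 70.6 to 109, a lower bound where INSL3 was saturated (2 F1 arrays), and 30.9 to 33.6. Of 5 macrophage markers, 4 were lower in F1, with summed levels of 0.103 to 0.190 and 0.551 to 0.625, and 1 of 5 endothelial (SELP), 1 of 4 stromal (LUM) and the 1 tested T-cell marker (CD3E) were also lower. Summed levels in F1 and F2 were 0.296 to 0.463 and 0.872 to 1.32 for the endothelial list and 5.70 to 9.51 and 10.1 to 17.1 for the stromal list. The endothelial difference rests mostly on SELP, which measured 0.0395, 0.0838 and 0.0434 in the F1 against 0.636 and 0.864 in the F2. TEK, NOS3 and TIE1 overlapped between the groups, and neither they nor PECAM1 were called. Most of the stromal sum was DCN (3.74, 6.87 and 4.41 against 5.77 and 12.2), whose groups overlapped. The T-cell markers and the macrophage marker MSR1 were not well above background on any F1 array, so CD3E and MSR1 were tested only through their F2 values. CDH5, EDNRB and SELE, also on the endothelial list, were not well above background on any array. The same held for the erythrocyte markers HBB and SLC4A1 and the oocyte markers GDF9, NLRP5 and ZP4. By contrast, the endothelial markers TEK, NOS3, TIE1 and SELP each met that limit in every follicle. PECAM1 met it in F1 replicate 3 and in F2 replicates 1 and 2. In these bulk samples fewer cells of a type and less RNA per cell cannot be told apart. The part of cell composition in the values below was not tested, and NR5A1 and ALDH1A1 are themselves on the theca list.

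Of the 64 genes, 6 encode parts of the respiratory chain or ATP synthase, the mitochondrial complexes that pass electrons to oxygen and make ATP. NDUFS4, an accessory subunit of complex I, measured 3.59, 3.33 and 3.48 in the F1 against 0.695 and 0.859 in the F2, a ratio of 4.48 (log2 difference 2.16 ± 0.27). The F1 values lay within 1.08-fold of each other, the narrowest spread among F1 of all 6 genes. NDUFC1, another accessory subunit of complex I, measured 1.01, 0.593 and 0.955 against 0.207 and 0.294, or 3.37-fold (1.75 ± 0.36), with F1 replicate 2 below the other F1. DMAC2L, once described as coupling factor B of ATP synthase, gave 0.199, 0.147 and 0.151 in the F1, and its F2 values of 0.0210 and 0.0681 were themselves 3.25-fold apart. Its ratio of 4.34 therefore depended on the F2, being 2.41 with F2 replicate 1 left out and 7.82 with F2 replicate 2 left out. NDUFB5, also of complex I, was at 1.27, 1.26 and 0.919 in the F1 against 0.462 and 0.569 in the F2 (2.22-fold). Near the lower bound were COX7A2, a subunit of cytochrome c oxidase (2.09-fold), and ATP5F1A, the alpha subunit of ATP synthase (2.08-fold). ATP5F1A measured 18.5, 19.9 and 13.8 in the F1 against 8.06 and 8.51 in the F2, with no F1 near either F2. NDUFB5 and COX7A2 no longer met the criteria of the 64 at the 75th percentile, after quantile normalization or after normexp correction. ATP5F1A no longer met them at the 75th percentile and after quantile normalization, and DMAC2L after normexp correction.

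COX7A2 was the only one of the 64 whose probe shared 20 or more bases in a row with another probe on the array. Its 60-base probe and the probe of the expressed sequence tag BE666683 held the same 40 bases, so the pair are not independent readings. The last 25 shared bases are shown for that reason in capitals, as bases 16 to 45 of the COX7A2 probe, which runs on past the shared part, and bases 36 to 60 of the tag's probe, which ends with it:
COX7A2: TCAATATTTATTGACTTGTATTAGCtgcca
BE666683: TCAATATTTATTGACTTGTATTAGC
The COX7A2 probe measured 4.15, 2.66 and 2.91 in the F1 against 1.24 and 1.87 in the F2. The tag's probe measured 3.4, 2.5 and 2.72 in F1 and 1.38 and 1.86 in F2, a ratio of 1.78. Both probes ranked the 5 follicles in the same order, and neither overlapped between groups, but the second lay under the bound of 2.

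The whole oxidative phosphorylation list was measured, with 57 genes, all of them eligible. DMAC2L is not on that list and the other 5 genes above are. In the limma fit 2 of the 57 were higher in F1 (3.51% against 6.39% of all tested probes) and 0 lower, the 2 being NDUFS4 and NDUFC1. At an unadjusted limma p under 0.05 the counts were 15 higher and 0 lower, against 160 higher and 143 lower of the 860 tested named-gene probes. Whether the share called lay below or above that of all probes depended on the setting, since it was 15.8% against 9.39% with an intensity trend (9 genes) and 10.5% against 8.12% after normexp correction (6 genes). Its median log2 difference was 0.44, or 1.36-fold, against 0.22 over the eligible probes. Without overlap, 38 of the 57 were higher in F1 (66.7%, against 33.6% of the eligible probes) and 1, UQCR11 of complex III, was lower. At the 75th percentile 27 of 57 were higher without overlap (47.4%, against 26.6%), 1 was lower, and the median was 0.23 (against 0.01). With quantile normalization 27 were higher (47.4%, against 26.3%), 3 were lower, and the median was 0.15 (against -0.03). By complex, 25 of 33 complex I genes were higher without overlap (median 1.46-fold, range 1.05 to 4.48), as were 7 of 10 ATP synthase genes (median 1.31-fold), 4 of 7 complex IV genes (1.30-fold), 1 of 3 complex II genes (1.25-fold) and 1 of 4 complex III genes (1.25-fold). NDUFS4 and NDUFC1 had the largest ratios of the 57, and the next largest ratios were those of NDUFB5, COX7A2, ATP5F1A and NDUFA12 (1.95-fold).

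A further 7 genes encode other mitochondrial enzymes and redox proteins. IDH3A, the catalytic subunit of the NAD-dependent isocitrate dehydrogenase of the citric acid cycle, measured 6, 2.59 and 4.15 in the F1 against 1 and 0.986 in the F2, or 4.04-fold (2.01 ± 0.40). The F2 were nearly equal, and F1 replicates 1 and 2 differed by 2.32-fold. ENDOG, the mitochondrial endonuclease G, measured 6.74, 5.66 and 6.04 in the F1 against 1.67 and 1.90 in the F2, or 3.45-fold, with tight values in both groups. HINT2, a mitochondrial nucleotide hydrolase, measured 6.67, 6.29 and 4.24 against 1.42 and 2.46, or 3.01-fold.

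TXNRD2, the mitochondrial thioredoxin reductase, measured 0.242, 0.193 and 0.146 in the F1 against 0.0618 and 0.0703 in the F2, or 2.87-fold. PRDX3, the mitochondrial peroxiredoxin that thioredoxin keeps reduced, was at 2.21-fold, and GCSH of the glycine cleavage system and ACSS1, a mitochondrial acetyl-CoA synthetase, were at 2.40 and 2.31-fold. The cytosolic counterpart TXNRD1 measured 1.12, 1.29 and 0.950 in the F1 against 1.24 and 1.13 in the F2, and its groups overlapped (0.940-fold, limma adjusted p = 0.851). The TXNRD2 probe is printed because TXNRD1 has a similar role, whether it also binds TXNRD1 RNA was not tested, and it is in lower case throughout since no part of it is set apart:
TXNRD2: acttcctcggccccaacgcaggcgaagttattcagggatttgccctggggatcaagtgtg
Of the 19 glutathione and antioxidant genes on the array, limma called 4 higher in F1 (GPX1, GPX3, PRDX3 and TXNRD2) and 0 lower. The share called higher was 21.1%, against 8.6% of tested named-gene probes, of which 9.19% were called lower. PRDX3 and TXNRD2 are among the 64 and the list was chosen with earlier results known, so this share is a description only. At an unadjusted limma p under 0.05 the list had 6 higher and 3 lower, against 160 and 143 of the 860 tested named-gene probes. GPX1 (9.77-fold) and GPX3 (11.5-fold), glutathione peroxidases that remove hydroperoxides, lay above the range of the 64 genes. In the same list 10 were higher (52.6%, against 33.6% of the eligible probes) and 5 lower in F1 without overlap (26.3%, against 20.9%).

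Steroid and sterol synthesis and nuclear receptors accounted for 6 genes, with the highest median ratio of the groups described here (4.11). FDXR, ferredoxin reductase, measured 19.7, 13.0 and 18.1 in the F1 against 3.08 and 2.01 in the F2, or 6.70-fold (2.74 ± 0.34). Its lowest F1 value was 4.23 times its highest F2 value, the second-widest gap of the 64. NR5A1, steroidogenic factor 1, a nuclear receptor that drives steroidogenic genes, measured 0.154, 0.138 and 0.111 against 0.0196 and 0.0427, or 4.59-fold. PPARG, a lipid-activated nuclear receptor, measured 0.491, 1.08 and 0.912 against 0.121 and 0.231, or 4.70-fold, and here F1 replicate 1 was the lowest F1. TM7SF2, a sterol reductase of cholesterol synthesis, measured 0.110, 0.0598 and 0.0671 against 0.0232 and 0.0190, or 3.62-fold, and FDPS, which makes farnesyl diphosphate upstream of cholesterol, was at 2.13-fold. Under other processing, FDPS no longer met the criteria of the 64 at the 75th percentile and after quantile normalization. NR5A1, TM7SF2 and ESR2 no longer met them after normexp correction.

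ESR2, the estrogen receptor beta of granulosa cells, measured 0.0703, 0.147 and 0.198 in the F1 against 0.0269 and 0.0618 in the F2. Its ratio of 3.12 became 2.05 with F2 replicate 1 left out and 4.73 with F2 replicate 2 left out, and F1 replicate 1 was only 1.14 times F2 replicate 2. Within the steroid synthesis list, limma called 5 of 11 genes higher in F1 and 0 lower (7 and 1 at an unadjusted p under 0.05). The share called higher was 45.5%, against 6.39% of all tested and 8.6% of tested named-gene probes. Besides FDXR and NR5A1 these were CYP19A1, aromatase, whose F2 replicate 1 was not well above background, CYP17A1, which makes androgens (15.4-fold), and CYB5A, its electron donor (8.89-fold). FDX1, the ferredoxin that FDXR reduces, measured 0.476, 0.429 and 0.329 against 0.181 and 0.245, or 1.93-fold, below the lower bound. STAR, which carries cholesterol into the mitochondrion, had lower values in F1, with 5.56, 3.14 and 5.33 in the F1 against 16.1 and 9.91 in the F2 (0.358-fold, limma adjusted p = 0.0593), without overlap but not past the threshold.

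**Figure D2:**
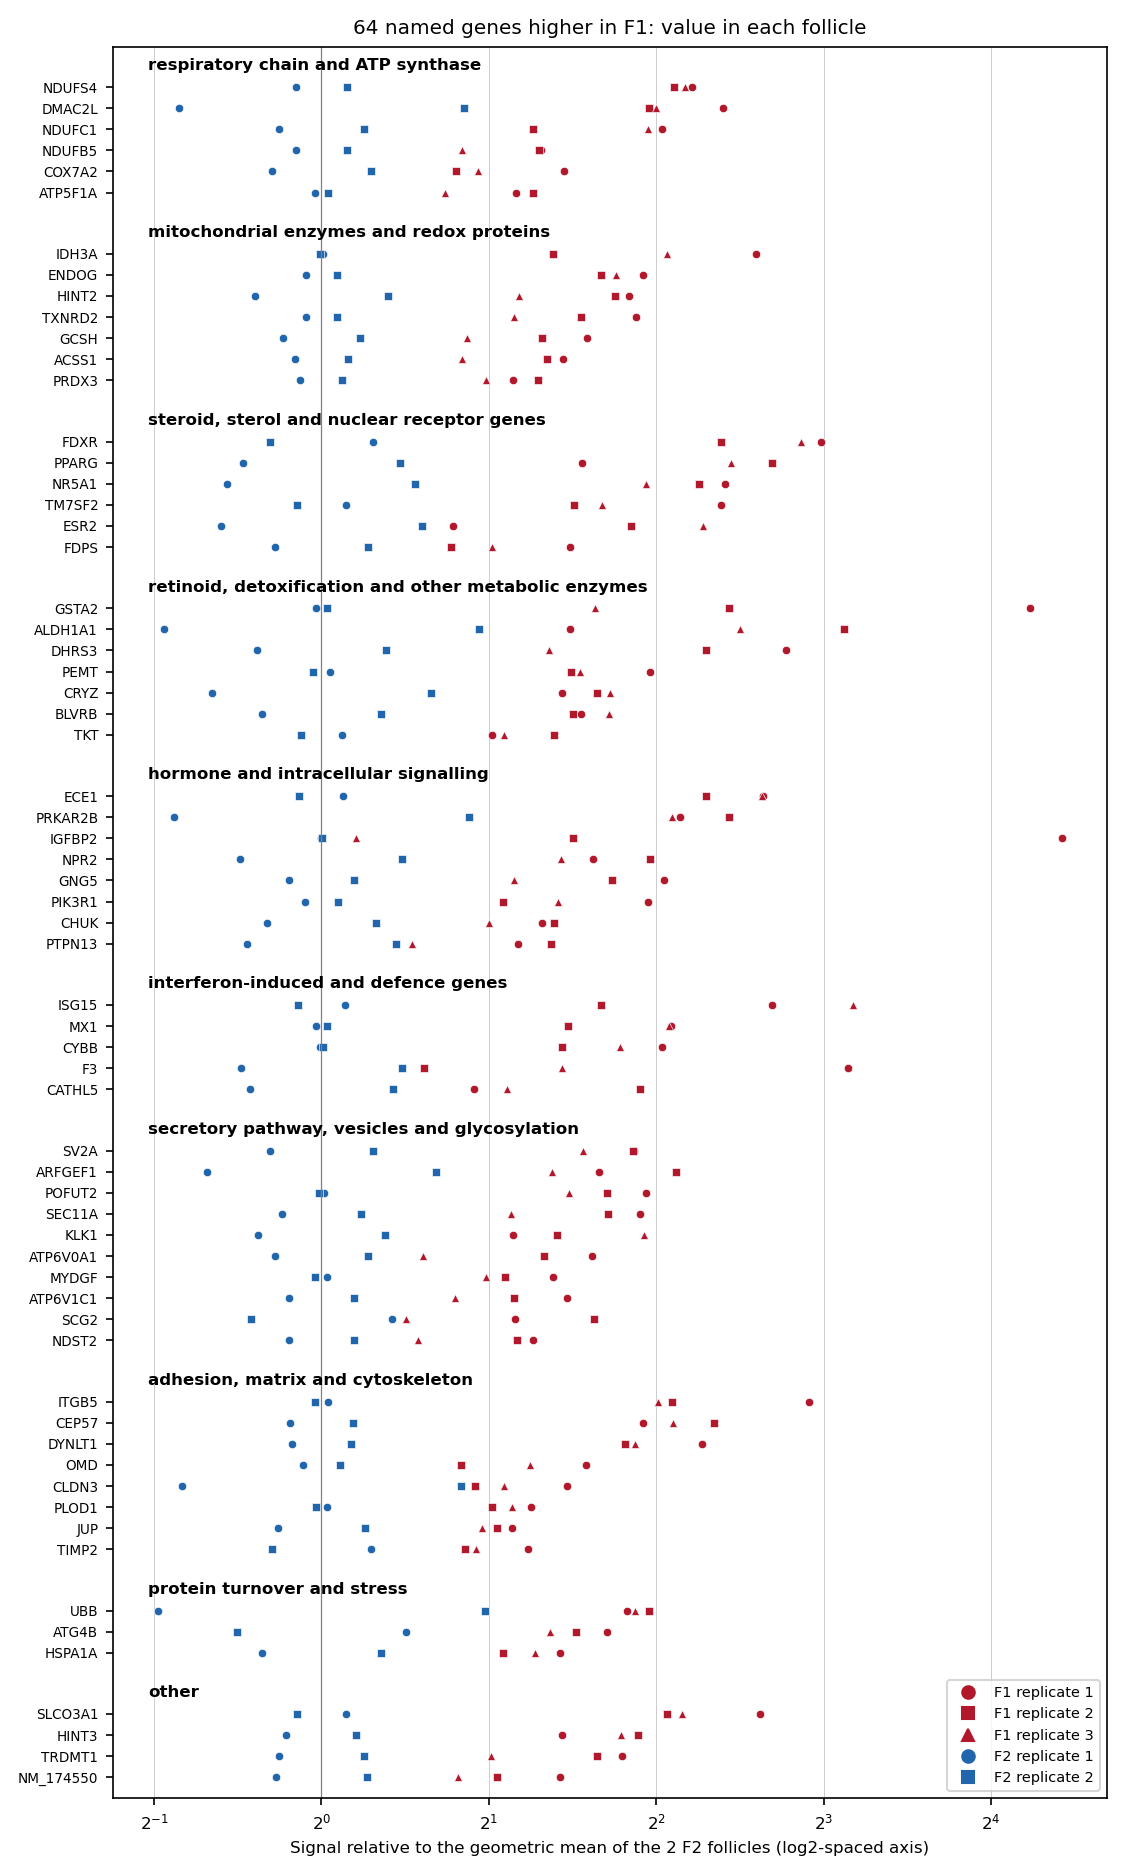
Value of each of the 64 genes in each follicle (red, F1; blue, F2), divided by the geometric mean of the 2 F2, on a log2-spaced axis, with genes grouped by function and ordered by ratio within a group. Every red symbol lies right of every blue symbol in its row by the way the genes were chosen, and the rows differ in how tightly the symbols cluster, from NDUFS4 (F1 within 1.08-fold) to IGFBP2 (F1 18.6-fold apart).

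Retinoid, detoxification and other metabolic enzymes numbered 7. GSTA2, an alpha-class glutathione S-transferase, had the largest ratio of the 64 and one of the widest spreads, with 0.637, 0.183 and 0.105 in the F1 against 0.0331 and 0.0347 in the F2. Its ratio was 6.79 (2.76 ± 0.73), 4.08 with F1 replicate 1 left out and 10.1 with F1 replicate 3 left out. ALDH1A1, which oxidizes retinaldehyde to retinoic acid, measured 1.11, 3.46 and 2.25 in the F1 against 0.207 and 0.763 in the F2, or 5.17-fold. That ratio was 2.69 with F2 replicate 1 left out and 9.92 with F2 replicate 2 left out. DHRS3, which reduces retinaldehyde back to retinol, measured 20.5, 14.7 and 7.68 against 2.29 and 3.91, or 4.42-fold. These 2 opposing retinoid enzymes were ordered differently among the F1, with replicate 1 lowest for ALDH1A1 and highest for DHRS3.

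PEMT, which methylates phosphatidylethanolamine to phosphatidylcholine, measured 0.254, 0.183 and 0.190 in the F1 against 0.0676 and 0.0629 in the F2, or 3.17-fold. CRYZ, a quinone reductase, was at 3.04-fold (1.93 with F2 replicate 1 left out and 4.78 with F2 replicate 2 left out). BLVRB, biliverdin reductase B, was at 3.01-fold and TKT, transketolase of the pentose phosphate pathway, at 2.25-fold. F1 replicate 1 was the lowest F1 for ALDH1A1, PPARG, ESR2, CRYZ, TKT, CEP57, UBB, HINT3, KLK1 and CATHL5, 10 of the 64 genes.

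Of the 64 genes, 8 belong to hormone and intracellular signalling. ECE1, the protease that makes active endothelin, measured 0.851, 0.673 and 0.847 in the F1 against 0.15 and 0.125 in the F2, or 5.75-fold (2.52 ± 0.28). Its gap, 4.50-fold between the lowest F1 and the highest F2, was the widest of the 64. PRKAR2B, a regulatory subunit of the cAMP-dependent protein kinase through which gonadotropins act, measured 1.32, 1.62 and 1.28 against 0.163 and 0.551, or 4.66-fold (2.54 without F2 replicate 1, 8.57 without F2 replicate 2). NPR2, the receptor for C-type natriuretic peptide, which in follicles helps hold the oocyte in meiotic arrest, measured 0.379, 0.480 and 0.332 against 0.0879 and 0.172, or 3.2-fold. The rest of this group was GNG5, a G protein gamma subunit (3.12-fold), PIK3R1, the regulatory subunit of phosphoinositide 3-kinase (2.80-fold), CHUK, a kinase of the NF-kappa-B pathway (2.36-fold), and PTPN13, a tyrosine phosphatase (2.03-fold).

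IGFBP2, which binds insulin-like growth factors and so limits their action, differed most among the F1. It measured 0.686, 0.0908 and 0.0369 in the F1, an 18.6-fold range, and 0.0319 and 0.0321 in the F2. F1 replicate 3 was thus close to both F2 and F1 replicate 1 stood alone. The ratio of 4.12 (2.04 ± 1.13) was 1.81 with F1 replicate 1 left out and 7.79 with F1 replicate 3 left out, and the groups overlapped after normexp background correction. Its probe is shown because its value rests so heavily on 1 follicle:
IGFBP2: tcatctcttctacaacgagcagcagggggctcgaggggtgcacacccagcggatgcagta

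Interferon-induced and defence genes numbered 5. ISG15, a ubiquitin-like protein induced by interferon, measured 2.25, 1.11 and 3.15 in the F1 against 0.384 and 0.317 in the F2, or 5.70-fold (2.51 ± 0.47). MX1, an interferon-induced antiviral GTPase, measured 1.64, 1.07 and 1.63 against 0.377 and 0.395, or 3.69-fold. Both genes were lowest among the F1 in replicate 2. CYBB, the catalytic subunit of the phagocyte NADPH oxidase, measured 0.341, 0.225 and 0.286 in the F1 against 0.0827 and 0.0838 in the F2, or 3.36-fold. The macrophage markers AIF1, TYROBP, MSR1 and CD14 were higher in F2 instead, and MSR1 was not well above background on any F1. The fifth macrophage marker, FCER1G, measured 0.0281, 0.0342 and 0.0248 against 0.0196 and 0.0237, with the F1 above the F2, and was not called by limma. F3, tissue factor, measured 0.989, 0.171 and 0.303 against 0.0802 and 0.156, or 3.32-fold, with F1 replicate 1 far above the others (2.04 without it and 4.90 without F1 replicate 2). At the 75th percentile the F3 groups overlapped. CATHL5, a cathelicidin, was at 2.48-fold on weak signals, and its groups overlapped after normexp correction.

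The secretory pathway, vesicles and glycosylation gave the largest group, 10 genes, with ratios from 2 to 3.39. SV2A, a vesicle membrane glycoprotein, measured 0.0923, 0.0919 and 0.0749 in the F1 against 0.0205 and 0.0313 in the F2, or 3.39-fold, near the background of the arrays. ARFGEF1, which activates ARF GTPases of the Golgi, measured 0.768, 1.06 and 0.633 against 0.152 and 0.391, or 3.29-fold (2.05 with F2 replicate 1 left out and 5.28 with F2 replicate 2 left out). POFUT2, which fucosylates thrombospondin repeats, measured 2.60, 2.22 and 1.89 against 0.687 and 0.672, or 3.26-fold, with the F2 nearly equal. SEC11A, the catalytic subunit of signal peptidase, measured 11.1, 9.71 and 6.5 against 2.52 and 3.49, or 3-fold.

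Of the other 6 in this group, KLK1, tissue kallikrein, was at 2.81-fold and MYDGF, a secreted growth factor, at 2.22-fold. The proton pump subunits ATP6V0A1 and ATP6V1C1 were at 2.27 and 2.21-fold, the granule protein SCG2 at 2.14-fold, and NDST2 just inside the bound. SCG2 measured 0.643, 0.891 and 0.410 in the F1 against 0.386 and 0.216 in the F2, so that F1 replicate 3 exceeded F2 replicate 1 by 1.06-fold. The SCG2 groups overlapped at the 75th percentile and after quantile normalization, and those of ATP6V0A1 after normexp correction.

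Adhesion, matrix and cytoskeleton accounted for 8 genes. ITGB5, an integrin subunit that binds vitronectin, measured 53.3, 30.3 and 28.5 in the F1 against 7.29 and 6.89 in the F2, or 5.05-fold (2.34 ± 0.36). CEP57, a centrosome protein, measured 0.139, 0.187 and 0.158 against 0.0323 and 0.0419, or 4.35-fold. DYNLT1, a light chain of cytoplasmic dynein, measured 4.83, 3.52 and 3.67 against 0.885 and 1.13, or 3.97-fold. In all 3 the lowest F1 was more than 3 times the highest F2.

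OMD, a small leucine-rich proteoglycan, measured 0.0830, 0.0495 and 0.0658 in the F1 against 0.0257 and 0.0299 in the F2, or 2.34-fold. CLDN3, a tight junction protein, measured 14.4, 9.85 and 11.1 in the F1 but 2.92 and 9.28 in the F2. F2 replicate 2 was thus almost level with F1 replicate 2, the ratio of 2.23 was 1.25 with F2 replicate 1 left out and 3.98 with F2 replicate 2 left out, and the groups overlapped at the 75th percentile, after quantile normalization and after normexp correction. PLOD1, a collagen lysyl hydroxylase (2.19-fold), JUP, plakoglobin of cell junctions (2.07-fold), and TIMP2 completed the group. TIMP2 measured 53.9, 41.6 and 43.6 in the F1 against 28.2 and 18.7 in the F2, and its groups overlapped after quantile normalization. Over the whole extracellular matrix and protease list, limma called 11 of 40 genes lower in F1 (27.5%, against 9.19% of tested named-gene probes) and 4 higher (10%, against 8.6%), and its median log2 difference was -0.52. Of those called lower, SPP1 was not well above background on any F1 and PLAUR not on F1 replicate 1, so both were tested only through their F2 values. Of those called higher, TNFAIP6 was not well above background on F2 replicate 1 and SERPINE2 was saturated on 3 arrays. TIMP2 and F3 were the only 2 of the 64 on that list, and neither passed the limma threshold.

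Protein turnover and stress held 3 genes. UBB, which encodes ubiquitin, measured 0.477, 0.522 and 0.493 in the F1 against 0.0685 and 0.265 in the F2, or 3.69-fold. The F1 agreed within 1.1-fold and the F2 differed by 3.88-fold, and the ratio was 1.87 with F2 replicate 1 left out and 7.26 with F2 replicate 2 left out. ATG4B, a protease of autophagy, measured 0.0842, 0.0742 and 0.0667 against 0.0367 and 0.0182, or 2.88-fold. HSPA1A, the inducible heat shock protein HSP70, measured 1.97, 1.56 and 1.78 against 0.574 and 0.941, or 2.40-fold. A near-identical gene copy exists for HSPA1A, so its probe, printed for that reason, may read more than 1 gene:
HSPA1A: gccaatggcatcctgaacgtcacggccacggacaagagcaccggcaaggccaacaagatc

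The last 4 genes fell in no group. SLCO3A1, an organic anion transporter, measured 1.23, 0.837 and 0.890 in the F1 against 0.221 and 0.181 in the F2, or 4.86-fold (2.28 ± 0.30), with a gap of 3.79-fold. HINT3, a nucleotide hydrolase, measured 0.0987, 0.135 and 0.126 against 0.0315 and 0.0421, or 3.26-fold. TRDMT1, a transfer RNA methyltransferase, measured 0.237, 0.214 and 0.138 against 0.0573 and 0.0814, or 2.79-fold. The probe with the accession NM_174550, which matched no symbol, measured 3.56, 2.74 and 2.34 against 1.1 and 1.60, or 2.14-fold.

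**Figure D3:**
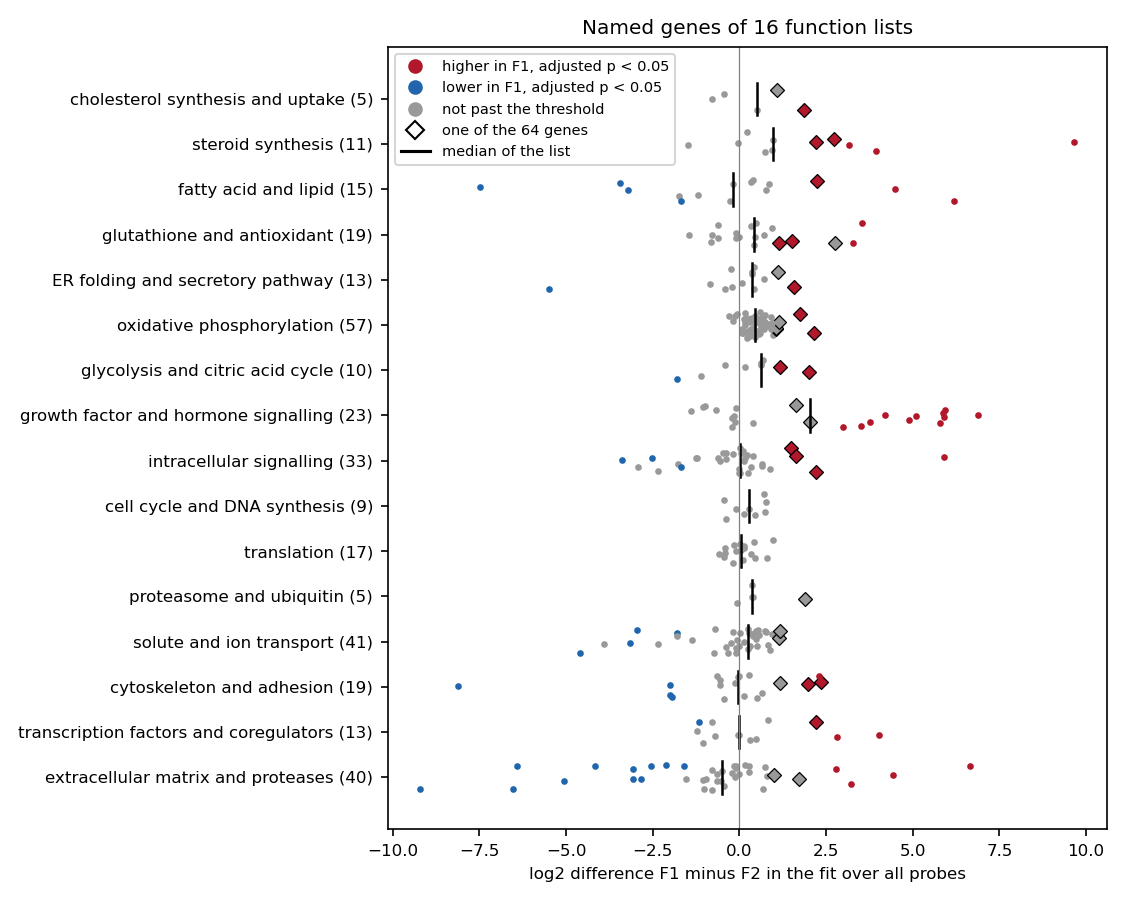
Log2 difference between F1 and F2 in the limma fit (horizontal axis) for each tested gene of 16 function lists (rows, number tested in brackets), coloured by limma call, with the 64 genes as outlined diamonds and the list median as a bar. Oxidative phosphorylation genes cluster narrowly around a median of 0.44, whereas extracellular matrix and protease genes spread widely around -0.52.

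Across the 16 function lists, limma called 70 of 328 tested genes, 42 higher and 28 lower in F1, against 6.39% and 5.08% of all tested probes and 8.6% and 9.19% of the tested named-gene probes. The lists were chosen with earlier results of these data known, and some called genes are among the 64. Each share beside that of all probes is therefore a description and not a test of the list. Limma called 0 of 17 translation genes, 0 of 9 cell cycle and DNA synthesis genes and 0 of 5 proteasome and ubiquitin genes, and at an unadjusted p under 0.05 the counts were 2, 1 and 1, all higher in F1. Over the 860 tested named-gene probes the unadjusted counts were 160 higher and 143 lower. Solute and ion transport had 4 of 41 genes lower and 0 higher (6 and 5 unadjusted), with a median log2 difference of 0.26. The share lower, 9.76%, was near the 9.19% of tested named-gene probes. Of the 4, KCNJ2 was not well above background on any F1 and TRPC4 only on F1 replicate 2, so both were tested only through their F2 values. Intracellular signalling had 4 of 33 higher and 3 lower with a median of 0.01. Growth factor and hormone signalling had 11 of 23 higher (47.8%, against 8.6% of tested named-gene probes), and the 2 of that list among the 64, ESR2 and IGFBP2, were not past the threshold. Of those called, INHBB, LHCGR, PTHLH, FSHR and OXTR were not well above background on either F2, so they were tested only through their F1 values. FST, INHA, INHBA and INSL3 were saturated on F1 arrays. The list median log2 difference was 2.04 over the tested genes and -0.12 over its 12 eligible genes.

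The median ratio of highest to lowest value among the F1 was 1.52 for the 64 genes and 1.51 for the eligible probes, and between the F2 it was 1.40 and 1.28. More than 2-fold separated the F1 in 11 of the 64 genes (17.2%, against 19.9% of eligible probes) and the F2 in 10 (15.6%, against 10.3%). Most of the 64 were highest among the F1 in replicate 1 (44 genes, 68.8%, against 46% of eligible probes), but at the 75th percentile the count was 29 (45.3%), with 27 highest in replicate 3 (42.2%), against 30.4% and 40% of the eligible probes on that scale. F2 replicate 2 was the higher F2 for 49 genes (76.6%), a share near the 73.5% of eligible probes.

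**Figure D4:**
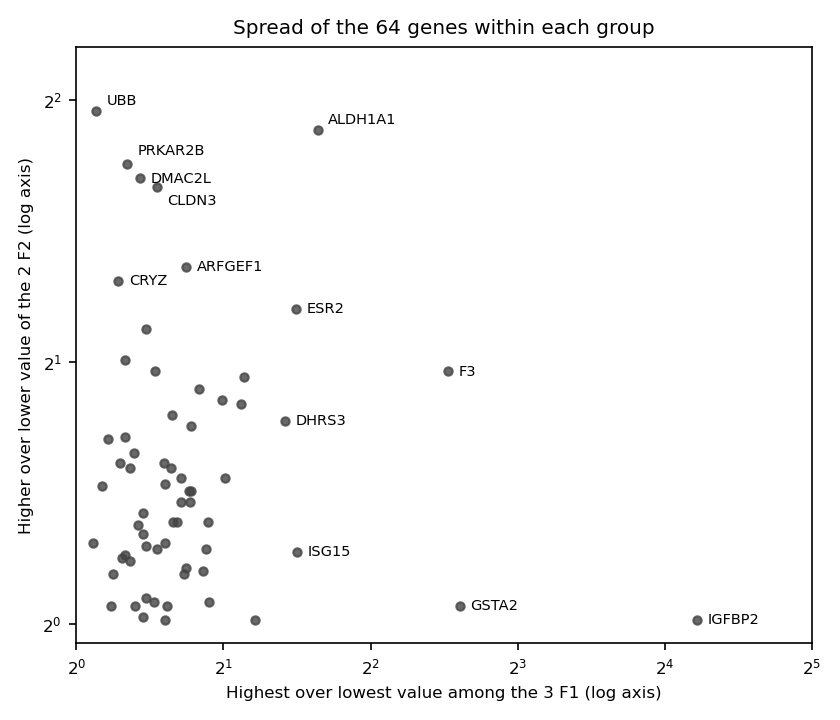
Ratio of highest to lowest value among the 3 F1 (horizontal, log axis) against the ratio of the higher to the lower F2 value (vertical, log axis) for each of the 64 genes, with the widest spreads named. IGFBP2, GSTA2 and F3 spread mainly among the F1, UBB, PRKAR2B, DMAC2L and CLDN3 mainly between the F2, and ALDH1A1 in both.

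The gap between groups, the lowest F1 value over the highest F2 value, had a median of 1.86 over the 64 genes and was 2 or more in 25 of them. It was widest in ECE1, FDXR, ITGB5 (3.91), NDUFS4 (3.87) and SLCO3A1. It was under 1.2 in 6 genes, namely PTPN13, CLDN3 and SCG2 (each 1.06), F3 (1.1), ESR2 (1.14) and IGFBP2 (1.15). Leaving out 1 follicle moved the ratio by more than 1.5 times in 11 genes, each given above with its follicle, and in 8 of those 11 the follicle was an F2. The weakest value lay under 2 times the lowest detected signal of its array in 10 genes, which were NR5A1, DMAC2L, IGFBP2, TM7SF2, SV2A, ESR2, ATG4B, CATHL5, OMD and ATP6V0A1.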

How the data were processed

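Total RNA of the follicular wall was measured for 3 F1 and 2 F2 on 5 one-color arrays. The authors extracted spot intensities with Feature Extraction (version 9.5.3.1 per the file headers), and the deposited scanner files hold background-subtracted intensity and detection flags. A second deposited table gives the ratio of each signal to the GAPDH median of its array, and it served as an alternative. Where both exist its values equal those used here to within 0.0005, so it differs mainly in which probes have a value. Signals were divided by that median, floored at 0.001 and put on the log2 scale.

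The members, function lists and marker lists were chosen with earlier results of these data known, and function groups were given after the members had been seen. In each group up to 4 members with the largest ratio are named with every value, beside those with the widest or narrowest gaps and those nearest the bounds. The 5528 of 10163 probes detected well above background throughout F1 or throughout F2 were fitted with limma 3.58.1 in R 4.3.3, without a block, with Benjamini-Hochberg adjustment at 0.05. Other steps used Python 3.11.15. The fit was tested on simulated data. Precision is limited by the number of arrays.

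Of 1415 probes with a RefSeq messenger RNA accession, 1364 matched a symbol in RefSeq (assembly ARS-UCD2.0, names only). Promoters and proteins were not analysed here. Alternatives were the 75th percentile, quantile and normexp (offset 50) settings, the deposited values, centring, other filters and floors, an intensity trend, a replicate block and leaving out each follicle.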

Additional observations from a re-analysis of the deposited data

How the results depend on the processing

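By the rule, 49 genes qualified at the 75th percentile (45 of the 64), 51 after quantile normalization (46), 45 after normexp correction (37), 58 in the deposited values (58) and 60 after centring on the eligible probes (58). Only 58 of the 64 had a deposited value on all 5 arrays. Since those values equal the ones used here to within 0.0005, keeping all 58 was fixed in advance. The median log2 difference of the 64 was 1.62, 1.06 after normexp and 1.30 to 1.86 with each follicle left out. Leaving out each follicle gave 62 to 123 genes by the rule. The count was 104 without F1 replicate 3 and 123 without F2 replicate 2, where a missing follicle itself loosens the rule. All 64 stayed apart in each of these by construction. Limma called 634 probes, 214 with no filter on weak probes, and 160 to 550 with each follicle left out (344 without F1 replicate 1, 160 without F2 replicate 1, 200 without F2 replicate 2). Function-list calls numbered 70, 22 with no filter, and 20 to 68 with each follicle left out (20 without F2 replicate 1, 36 without F2 replicate 2). Of the 64 genes, limma called 36, 53 with an intensity trend, 7 with no filter, 11 without F1 replicate 1, 19 without F1 replicate 2, 22 without F1 replicate 3, 0 without F2 replicate 1 and 7 without F2 replicate 2. A lone F2 was then assumed to vary like the F1. Oxidative phosphorylation calls numbered 2, 9 with the trend and 6 with normexp. They numbered 4 (7.02%) at the 75th percentile, after quantile normalization or with probes well above background on all 5 arrays, against 7.62%, 7.98% and 8.15% of all tested probes. With the deposited values or a floor of 0.01 they numbered 3 (5.26%), against 7.38% and 8.94%. Without F1 replicate 1 or F1 replicate 3 the count was 1 (1.75%), against 2.87% and 5.01%. Their count without overlap under other scalings was added after seeing the data. Replicate numbers are not known to pair follicles. With them as a block, limma called 578 probes, 62 function-list genes, 29 of the 64 and 1 oxidative phosphorylation gene. After the group mean of each probe was subtracted, the deviations of same-numbered F1 and F2 correlated at 0.0639 (replicate 1) and 0.256 (replicate 2) over 4861 probes. With 2 F2, the deviations of the F2 mirror each other, so these are not 2 independent readings. The cause of these movements was not tested. The motif search in promoters was not run. Signals near background limit the 10 weak genes.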
